A study of Mus musculus with 8 samples.

Results

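The *Slc25a* symbols name the mitochondrial solute carriers, membrane proteins that move metabolites across the inner membrane of the mitochondrion. The 47 genes described here are the rows of a liver RNA-seq table whose symbol is Slc25a followed by a number, out of 23282 rows in all. All 47 are annotated as protein coding genes. Liver tissue came from C57BL/6 mice, stated to be male and 4 weeks old, in 3 groups. Mice of the control group received saline, mice of the endotoxemic group received 25 mg/kg lipopolysaccharide (LPS, the endotoxin of gram-negative bacteria), and mice of the LGK974 group received 60 mg/kg LGK974, an inhibitor of Wnt secretion, before 25 mg/kg LPS. The labels of the LGK974 samples give neither LPS nor a dose, and both were taken from the study's methods, as were the injection of LGK974 2 h before LPS in most experiments and the collection of tissue 6 h after LPS. In the sequenced groups, LGK974 was given only to mice that also received LPS. The LGK974 group therefore shares LPS with the endotoxemic group and differs from the control group in both agents.

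Carriers of this family share a fold built of repeated modules and bring the substrates of the citric acid cycle, the urea cycle, fatty acid oxidation and ATP synthesis into or out of the matrix. Hepatocytes, which make up most of the liver's mass and are rich in mitochondria, depend on them for gluconeogenesis and for ammonia detoxification, since both pathways run partly in the matrix and partly in the cytosol. LPS acts on the liver through Toll-like receptor 4 and the cytokines released downstream of it, and the acute response is known to lower the transcripts of many metabolic genes of hepatocytes.

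The endotoxemic group has 4 deposited libraries, but libraries 3 and 4 hold the same counts as libraries 1 and 2 on all 23282 rows. Identical libraries entered the analysis once, so that every group had 2. The totals of these 6 libraries were 11046257 and 15222439 counts after saline (the control group), 9142116 and 9158958 after LPS (the endotoxemic group), and 13573778 and 14575204 after LGK974 with LPS (the LGK974 group). Nothing in the labels states that the libraries of a group came from separate mice, so that the p-values below measure the spread between these libraries, which may be technical. The control and endotoxemic libraries also went against the stated sex. *Xist*, a transcript of the inactive X chromosome in females, had a CPM (the count of a gene scaled to a common library total with TMM factors) of 134 and 204 after saline, 128 and 201 after LPS, and 0.23 and 0.47 after LGK974 with LPS, whereas the Y-linked *Ddx3y* was at 0 counts in the control and endotoxemic libraries and at 132 and 94.2 in the LGK974 libraries. Each comparison with the LGK974 group is therefore also a comparison of libraries that differ in these sex-linked transcripts, and the parts of LGK974 and of sex cannot be told apart.

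Some symbols of this table do not stand where their gene lies. The rows follow the chromosomes, but on 526 rows the symbol belongs to a gene over 2 Mb away from those of the rows around it. None of the 47 *Slc25a* rows was among these 526. The neighbouring rows of each member were genomic neighbours, and the largest distance from a member to the gene on a neighbouring row was 0.518 Mb. Leaving out the 526 rows did not change the number of members called in any of the 3 comparisons.

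Of the 47 members, 36 passed the filter on low counts and were tested. The 11 others were *Slc25a2*, *Slc25a18*, *Slc25a27*, *Slc25a30*, *Slc25a31*, *Slc25a36*, *Slc25a41*, *Slc25a43*, *Slc25a48*, *Slc25a53* and *Slc25a54*. *Slc25a18* and *Slc25a41* had 0 counts in all libraries, where a count of 0 allows up to 3 counts, or a CPM of between 0.196 and 0.327. Among these 11 members, the highest count was 8, for *Slc25a48*, which had 4 and 8 counts in the control group, 0 in both endotoxemic libraries, and 1 and 2 in the LGK974 group. Differences in these 11 members were not detectable at this depth.

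The summed counts of all 47 members made up a smaller share of the endotoxemic libraries. Their share was 0.318% and 0.332% after saline, 0.163% and 0.156% after LPS, and 0.222% and 0.208% after LGK974 with LPS. The 3 groups did not overlap, and the LGK974 libraries stood between the others. *Slc25a47* alone held 7645 of 30137 and 3933 of 30330 member counts after LGK974 with LPS. After LPS it held 1130 of 14856 and 1177 of 14292, so that part of the gap between these 2 groups lay in this gene. These are shares of a library's total, so that they also move with the other genes.

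**Figure D1:**
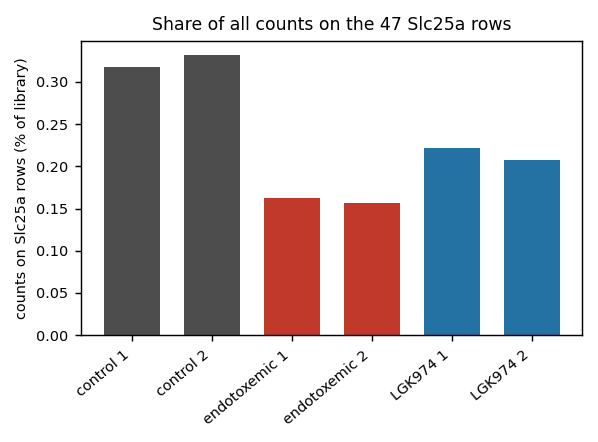
Counts on the 47 Slc25a rows as a percentage of each library's total counts (vertical axis, starting at 0), with 1 bar for each of the 6 distinct libraries. The control bars stand at 0.318% and 0.332%, the endotoxemic bars at 0.163% and 0.156%, and the LGK974 bars at 0.222% and 0.208%.

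The first comparison asked what LPS changed. In the endotoxemic group, 18 of the 36 tested members fell and 0 rose compared with the control group, at an adjusted p under 0.05 in edgeR's quasi-likelihood test with Benjamini-Hochberg adjustment over all genes. Among all 12701 genes tested, 23.0% fell and 20.4% rose, 43.4% in either direction. The median log2 fold change was −0.90 over the 36 members and 0.01 over all genes tested. At an unadjusted p under 0.05, 18 members fell and 0 rose (51.3% of all genes passed in either direction). DESeq2, whose fit held 45 members, also called 18 lower and 0 higher, beside 2763 lower and 2539 higher of 17263 genes. Both endotoxemic libraries lay below both control libraries for 25 members, and above both for 2, whereas 39.2% and 37.9% of all tested genes did so. The falls ranged from 1.82-fold for *Slc25a39* to 16.4-fold for *Slc25a23*. The 2 libraries of a group differed by a median of at most 1.29-fold over the members, and the larger falls were many times this median. Single members differed more, with 0.5 added to each CPM. The largest differences were 2.12-fold after saline (*Slc25a29*), 4.15-fold after LPS (*Slc25a32*) and 2.28-fold after LGK974 with LPS (*Slc25a23*).

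The count of 18 depended little on single libraries, but some of its members did. Leaving out each library in turn gave 15 to 19 members lower. *Slc25a16* was no longer called without control library 1 or 2 or endotoxemic library 2 (adjusted p of 0.0934, 0.0712 and 0.140 in edgeR's test), *Slc25a33* without control library 1 or endotoxemic library 1 or 2 (0.0811, 0.0822 and 0.0896), and *Slc25a15* without endotoxemic library 2 (0.0567). *Slc25a39* was lost without control library 2 (0.0783) and without endotoxemic library 1 (0.126). The other 14 were called whichever library was left out. Each of these fits leaves 1 group with a single library, which is assumed to vary like the other groups.

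**Figure D2:**
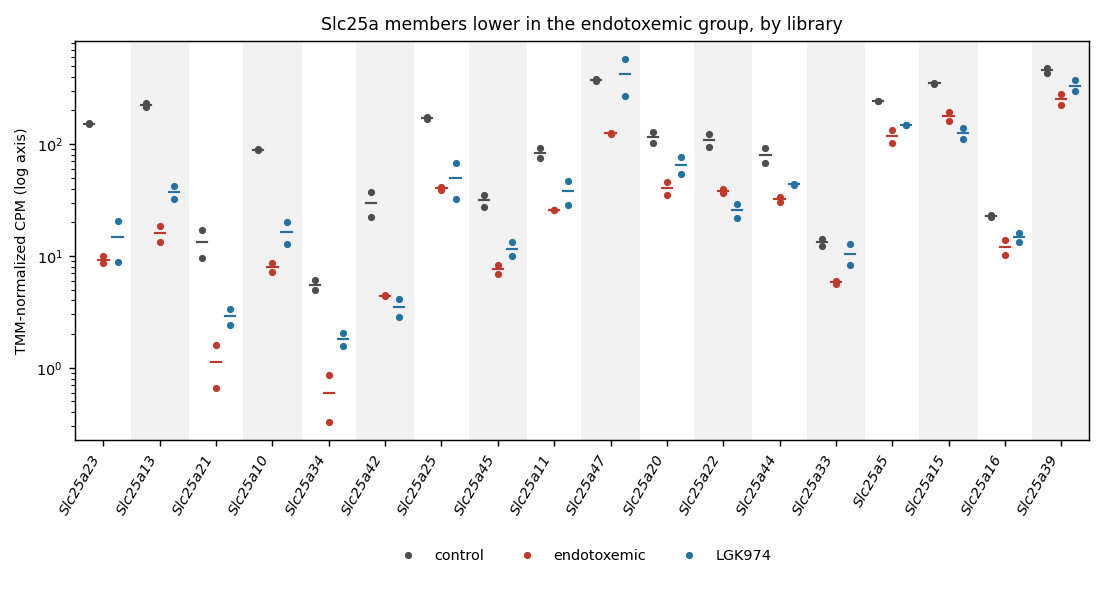
TMM-normalized CPM on a log axis for the 18 members called lower in the endotoxemic group, ordered from the largest to the smallest fall, with a point for each distinct library and a dash for the mean of the 2 libraries of a group. For each of the 18, both endotoxemic points lie below both control points, and the gap narrows from 16.4-fold for Slc25a23 to 1.82-fold for Slc25a39.

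With all libraries in the fit, a carrier of adenine nucleotides had the largest fall. *Slc25a23* (chr17:57043711-57059863, minus strand, GRCm38) encodes a calcium-regulated carrier that exchanges ATP-Mg for phosphate and so sets the size of the adenine nucleotide pool of the matrix. Its CPM was 150 and 154 after saline, 8.62 and 9.91 after LPS, and 8.76 and 20.6 after LGK974 with LPS. The endotoxemic libraries lay far below the control libraries, and 1 LGK974 library was within their range. The log2 fold change in the endotoxemic group was −4.04 ± 0.38 (SE; adjusted p = 4.67e-05 in edgeR's quasi-likelihood test). *Slc25a25*, a paralogue with the same type of transport, was at 166 and 174 after saline and 39.1 and 41.0 after LPS, a 4.25-fold fall (adjusted p = 0.000800). Another paralogue, *Slc25a24*, had few reads and did not pass the test, with a CPM of 2.98 ± 0.51 (SD, n = 2) after saline and 2.31 ± 0.95 after LPS. The interval of its log2 fold change ran from −1.39 to 0.68.

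The ADP/ATP carriers export the ATP made by oxidative phosphorylation. *Slc25a5*, the member of the class with the most counts, was at 244 and 245 after saline, 133 and 101 after LPS, and 147 and 147 after LGK974 with LPS. The endotoxemic libraries lay below the control libraries by 2.09-fold (log2 fold change −1.06 ± 0.20, adjusted p = 0.00245). *Slc25a4*, the isoform known from heart and muscle, was at 11.1 ± 1.24 after saline and 11.4 ± 0.11 after LPS, with overlapping libraries and an interval of −0.57 to 0.64. The difference between the 2 carriers was not tested. *Slc25a5* has a processed pseudogene, *Slc25a5-ps* on chromosome 14, and reads of the 2 copies could be split by the counting.

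In the class of citric acid cycle and dicarboxylate carriers, which also holds members whose substrates are not settled, 4 of 6 tested members fell and 0 rose, beside 23.0% and 20.4% of all genes tested. *Slc25a10* (chr11:120491840-120499187, plus strand) exchanges malate or succinate for phosphate and supplies malate for gluconeogenesis. It was at 90.1 and 87.6 after saline, 8.62 and 7.25 after LPS, and 19.9 and 12.7 after LGK974 with LPS. The control libraries were nearly equal, and the endotoxemic libraries lay 11.2-fold below them (log2 fold change −3.48 ± 0.27, adjusted p = 1.83e-05). *Slc25a21* (chr12:56712634-57197472, minus strand), the carrier of oxoadipate formed in lysine and tryptophan breakdown, was at 9.65 and 16.9 after saline, 0.655 and 1.60 after LPS, and 2.42 and 3.38 after LGK974 with LPS. Its fall of 11.7-fold rested on 6 and 15 counts in the endotoxemic libraries (log2 fold change −3.55 ± 0.52, adjusted p = 0.000612). Its log2 fold change was −2.99 without endotoxemic library 1 and −4.32 without endotoxemic library 2. *Slc25a34* (chr4:141618824-141623821, minus strand), whose substrates are not settled, fell from 65 and 76 counts to 3 and 8 counts. Its CPM was 6.03 and 4.97 after saline and 0.327 and 0.853 after LPS (log2 fold change −3.19 ± 0.60, adjusted p = 0.00244), and the log2 fold change was −2.62 and −4.03 without endotoxemic library 1 or 2. With at least 10 counts required in every library, *Slc25a21* and *Slc25a34* were not tested.

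*Slc25a11*, the oxoglutarate/malate exchanger of the malate-aspartate shuttle, fell 3.26-fold from 83.2 ± 12.6 to 25.5 ± 0.040 (SD, n = 2; adjusted p = 0.000924). *Slc25a1*, the citrate carrier that feeds fatty acid and sterol synthesis, had the most counts of the class over the 3 groups. It was at 85.4 and 102 after saline, 66.5 and 74.3 after LPS, and 101 and 120 after LGK974 with LPS. Its groups did not overlap between control and endotoxemic livers, but the log2 fold change of −0.41 did not pass the test (interval −0.86 to 0.04, adjusted p = 0.127). It did pass without LGK974 library 1 (adjusted p = 0.0482). *Slc25a35* had a CPM of at most 2.22 and did not pass (adjusted p = 0.101). Its exons overlap those of *Rangrf* on the other strand over 1151 bases.

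Of the 9 tested carriers of amino acids and glutathione, 5 fell and 0 rose (23.0% and 20.4% of all genes tested). *Slc25a13* (chr6:6041218-6217173, minus strand), also called citrin, is the calcium-regulated aspartate/glutamate carrier of hepatocytes, which exports aspartate for the urea cycle and works in the malate-aspartate shuttle. Its CPM was 212 and 231 after saline, 18.5 and 13.3 after LPS, and 32.4 and 42.2 after LGK974 with LPS. The 3 groups were fully separated, and the endotoxemic group lay 13.9-fold below the control group (log2 fold change −3.80 ± 0.25, adjusted p = 6.97e-06). *Slc25a12*, or aralar, is the isoform of excitable tissues with the same exchange. It was at 15.0 ± 0.21 after saline and 12.4 ± 0.43 after LPS, and its log2 fold change of −0.28 did not pass (interval −0.87 to 0.31). The intervals of the 2 isoforms did not overlap, although the difference between them was not tested.

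*Slc25a15*, the ornithine carrier of the urea cycle, fell 1.97-fold from 350 ± 7.26 to 177 ± 23.1 (SD, n = 2). *Slc25a22*, a glutamate carrier, fell 2.84-fold, and *Slc25a44*, which takes up branched-chain amino acids, fell 2.47-fold. *Slc25a39*, needed for the import of glutathione, had the most counts of its class. It was at 433 and 479 after saline, 222 and 278 after LPS, and 295 and 370 after LGK974 with LPS (log2 fold change in the endotoxemic group −0.87 ± 0.21, adjusted p = 0.00922). *Slc25a40*, its paralogue, *Slc25a38*, which brings glycine into the matrix for heme synthesis, and *Slc25a29*, a carrier of basic amino acids, did not pass the test, with log2 fold changes of −0.73, −0.09 and 0.81.

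*Slc25a20*, the carnitine-acylcarnitine carrier through which long-chain fatty acids enter the matrix for oxidation, was at 102 and 128 after saline, 34.9 and 45.4 after LPS, and 53.5 and 77.2 after LGK974 with LPS. The libraries of the 3 groups did not overlap. Its fall in the endotoxemic group was 2.86-fold (log2 fold change −1.52 ± 0.25, adjusted p = 0.00127).

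Of the 8 tested carriers of coenzymes and nucleotides, 3 fell and 0 rose, when 23.0% of all genes tested fell and 20.4% rose. *Slc25a42* (chr8:70184340-70212305, minus strand), which imports coenzyme A, was at 22.1 and 37.2 after saline, 4.36 and 4.48 after LPS, and 4.08 and 2.84 after LGK974 with LPS. Both treated groups lay below the control group, in the endotoxemic group by 6.71-fold (log2 fold change −2.75 ± 0.35, adjusted p = 0.000275). *Slc25a33*, a carrier of pyrimidine nucleotides, fell 2.26-fold, and *Slc25a16*, linked to coenzyme A transport, fell 1.90-fold. The NAD+ carrier *Slc25a51*, with the most counts of its class, had the second largest positive log2 fold change of all members. It was at 95 and 69 after saline, 139 and 111 after LPS, and 182 and 84.3 after LGK974 with LPS. Its value of 0.61 in the endotoxemic group did not pass the test (adjusted p = 0.178), but it passed without LGK974 library 1 (adjusted p = 0.0131) and without LGK974 library 2 (adjusted p = 0.0136). The carriers of S-adenosylmethionine (*Slc25a26*) and folate (*Slc25a32*) and the peroxisomal carrier *Slc25a17* did not pass, with log2 fold changes from −0.48 to −0.23.

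None of the 3 phosphate and iron carriers was called, when 43.4% of all genes tested were called in either direction. *Slc25a3*, which brings in the phosphate used by ATP synthase, was at 352 and 339 after saline, 318 and 257 after LPS, and 388 and 331 after LGK974 with LPS. Its log2 fold change of −0.26 had an interval of −0.71 to 0.18 (adjusted p = 0.306). *Slc25a37* and *Slc25a28*, the mitoferrins that import iron, had log2 fold changes of −0.04 and 0.26. The uncoupling-protein-like *Slc25a14* was at 5.57 and 3.20 after saline, 6.33 and 6.72 after LPS, and 2.49 and 3.86 after LGK974 with LPS, and did not pass (adjusted p = 0.291).

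Of the remaining members, *Slc25a45* fell 4.13-fold (adjusted p = 0.000400). *Slc25a46*, which sits in the outer membrane and acts in the shape of mitochondria, did not pass (log2 fold change −0.41, adjusted p = 0.127). *Slc25a47* (chr12:108836046-108856815, plus strand), a carrier known for its expression in liver, was at 385 and 366 after saline and 123 and 125 after LPS. The libraries of each of these 2 groups were nearly equal, and the fall was 3.02-fold (log2 fold change −1.59 ± 0.32, adjusted p = 0.00370).

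**Figure D3:**
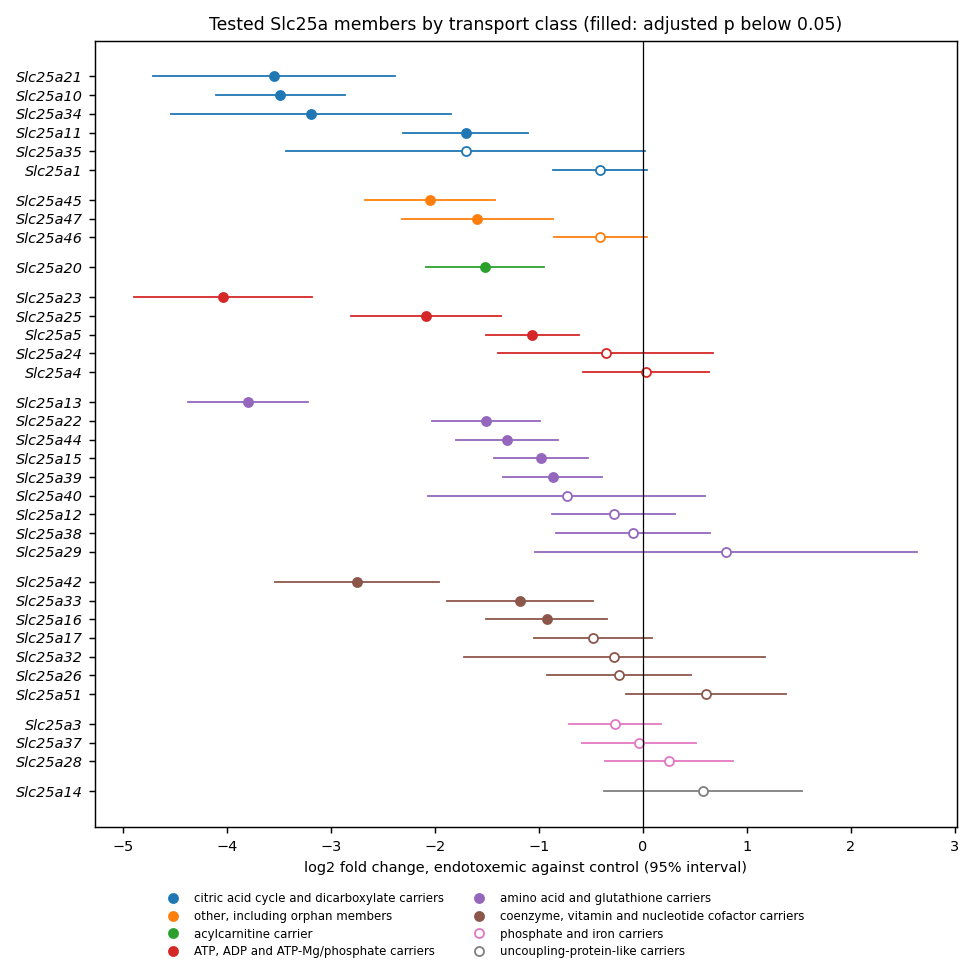
Log2 fold change in the endotoxemic against the control group for the tested members reported by name or range, grouped and coloured by transport class, with 95% intervals and filled points for an adjusted p under 0.05. All 18 filled points lie to the left of 0, from −0.87 for Slc25a39 to −4.04 for Slc25a23, and the phosphate and iron carriers lie between −0.26 and 0.26.

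The sequence upstream of 4 of the 6 members with the largest falls, *Slc25a23*, *Slc25a13*, *Slc25a10* and *Slc25a42*, is shown with those of *Slc25a3* and *Slc25a28*, which did not pass the test. These 6 were picked after their sequences had been seen, so that members with and without CCAAT boxes appear on both sides, and no contrast can be read from them. Each is the 250 bases before an annotated RefSeq start on GRCm38.p6, written 5′ to 3′ along the gene, and capitals mark each CCAAT box (CCAAT, or ATTGG on the other strand). The windows are chr17:57059843-57060092 for *Slc25a23*, chr6:6217174-6217423 for *Slc25a13*, chr11:120491587-120491836 for *Slc25a10*, chr8:70212282-70212531 for *Slc25a42*, chr10:91123968-91124217 for *Slc25a3* and chr19:43674882-43675131 for *Slc25a28*, on the plus strand for *Slc25a10* and on the minus strand for the others.
Slc25a23: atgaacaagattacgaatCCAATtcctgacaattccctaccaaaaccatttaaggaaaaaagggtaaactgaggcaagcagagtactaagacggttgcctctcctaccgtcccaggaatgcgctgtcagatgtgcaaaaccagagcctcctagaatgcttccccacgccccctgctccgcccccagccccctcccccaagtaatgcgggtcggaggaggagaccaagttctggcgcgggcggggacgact
Slc25a13: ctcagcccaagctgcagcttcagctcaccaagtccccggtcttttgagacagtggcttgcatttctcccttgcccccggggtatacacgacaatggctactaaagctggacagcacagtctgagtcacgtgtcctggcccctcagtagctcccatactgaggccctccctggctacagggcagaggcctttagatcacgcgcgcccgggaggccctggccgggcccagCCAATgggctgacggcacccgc
Slc25a10: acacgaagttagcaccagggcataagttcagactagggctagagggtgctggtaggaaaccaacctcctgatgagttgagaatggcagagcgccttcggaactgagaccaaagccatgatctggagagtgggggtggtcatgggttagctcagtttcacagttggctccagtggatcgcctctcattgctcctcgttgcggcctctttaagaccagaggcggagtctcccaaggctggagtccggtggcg
Slc25a42: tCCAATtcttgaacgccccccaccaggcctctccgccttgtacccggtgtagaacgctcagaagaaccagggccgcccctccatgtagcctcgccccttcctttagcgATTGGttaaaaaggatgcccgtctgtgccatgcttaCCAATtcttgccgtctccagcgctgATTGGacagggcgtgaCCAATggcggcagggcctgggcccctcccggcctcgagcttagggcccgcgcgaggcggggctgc
Slc25a3: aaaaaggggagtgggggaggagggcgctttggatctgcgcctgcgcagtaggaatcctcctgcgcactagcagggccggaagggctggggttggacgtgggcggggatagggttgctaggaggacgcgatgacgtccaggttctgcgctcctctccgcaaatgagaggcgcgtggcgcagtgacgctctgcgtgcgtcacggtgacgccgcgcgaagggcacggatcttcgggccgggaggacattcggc
Slc25a28: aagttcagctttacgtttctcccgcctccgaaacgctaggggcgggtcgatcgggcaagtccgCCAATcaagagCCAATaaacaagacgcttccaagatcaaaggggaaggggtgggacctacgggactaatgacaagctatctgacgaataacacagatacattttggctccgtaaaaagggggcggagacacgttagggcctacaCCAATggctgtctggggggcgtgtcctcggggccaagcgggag
Of these runs of 250 bases, that of *Slc25a42* holds 5 CCAAT boxes, that of *Slc25a28* holds 3, those of *Slc25a23* and *Slc25a13* hold 1 each, and those of *Slc25a10* and *Slc25a3* hold 0.

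Over all members, 36 of 47 had at least 1 RefSeq window of 300 bases, from 250 before to 50 after a start, with 46 windows in all. Of these, 24 windows belonged to 17 of the 18 fallen members and 13 to tested members without a call, and windows of 1 gene can overlap. CCAAT on either strand was found in 14 of the 24 windows of fallen members, in 5 of the 13 windows without a call and in 37.4% of 32851 windows of all genes. The other motifs were searched on both strands too. The GC box GGGCGG was found in 38 of the 46 windows of members, in 19 of the 24 and in 12 of the 13, and in 35.7% of all windows. The nuclear receptor half-site AGGTCA was in 4 of the 24 windows, those of *Slc25a34*, *Slc25a39*, *Slc25a45* and *Slc25a47*, in 0 of the 13 and in 16.3% of all. TATAAA was in 2 of the 46 windows against 13.6% of all, and CACGTG in 8 against 7.15%. These matches are letters in a fixed window and were counted without a test.

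The second comparison asked what differed when LGK974 was given before LPS. Of the 36 tested members, 2 were higher and 0 lower in LGK974 than in endotoxemic livers, when 2.80% of all 12701 genes were higher and 2.82% lower, 5.62% in either direction. The 2 members were *Slc25a47* and *Slc25a13*, and both are among the 18 that were lower in the endotoxemic group. At an unadjusted p under 0.05, 10 members were higher and 3 lower (22.9% of all genes passed), and DESeq2 called 3 higher and 0 lower. The median log2 fold change was 0.37 over the members and 0.03 over all genes tested. Both LGK974 libraries lay above both endotoxemic libraries for 20 members and below both for 5, and 26.5% and 26.0% of all genes tested did so. As both comparisons use the endotoxemic libraries, a low value there lowers the first and raises the second, and the values of each comparison are therefore only set side by side.

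*Slc25a13* was at 37.3 ± 6.91 in the LGK974 group and 15.9 ± 3.69 in the endotoxemic group (SD, n = 2), a 2.34-fold rise (log2 fold change 1.23 ± 0.24, adjusted p = 0.0217). *Slc25a47* was at 577 and 266 in the LGK974 libraries, both above the endotoxemic libraries at 123 and 125. Its rise was 3.39-fold (log2 fold change 1.76 ± 0.32, adjusted p = 0.0187). Neither call held when any control or endotoxemic library was left out, and both held without either LGK974 library. For *Slc25a13*, the adjusted p was 0.0620 and 0.0614 without control library 1 or 2, and 0.0974 and 0.221 without endotoxemic library 1 or 2. For *Slc25a47*, these values were 0.0511, 0.0511, 0.160 and 0.176. Over all the libraries left out in turn, the log2 fold change of *Slc25a13* lay between 1.01 and 1.45. That of *Slc25a47* was 1.10 without LGK974 library 1 and 2.21 without LGK974 library 2, so that its size rested on which LGK974 library was used. The fits without 1 LGK974 library assume that the lone LGK974 library varies like the other groups. In the fit without LGK974 library 1, the log2 fold change was 0.94 for *Slc25a20* and 1.16 for *Slc25a23*. With all libraries, *Slc25a23* was at 0.67 with overlapping groups (adjusted p = 0.302), and without LGK974 library 2 its direction turned (−0.083). Without LGK974 library 2, *Slc25a10* was higher (1.33, adjusted p = 0.00276), and *Slc25a15* (−0.67, adjusted p = 0.0418) and *Slc25a22* (−0.80, adjusted p = 0.0461) were lower.

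*Slc25a10*, with a log2 fold change of 1.04 ± 0.26, was next to the threshold (adjusted p = 0.0554), and it was the member that DESeq2 called in addition (adjusted p = 0.0220). It also passed in edgeR with no filter on low counts (adjusted p = 0.00345) and with the replicate number as a block (adjusted p = 0.0486), and its adjusted p was 0.120 to 0.323 without a control or endotoxemic library. The other fallen members with a positive value included *Slc25a34* at 1.58, *Slc25a21* at 1.35, *Slc25a33* at 0.84 and *Slc25a20* at 0.70, none of which passed the test (adjusted p from 0.133 to 0.169). Without endotoxemic library 1 and without library 2, *Slc25a34* was at 1.04 and 2.42 and *Slc25a21* at 0.83 and 2.13, and neither passed. *Slc25a42*, *Slc25a15* and *Slc25a22* had values below 0, at −0.36, −0.50 and −0.57, and did not pass either (adjusted p from 0.175 to 0.599). Of the members that had not fallen, *Slc25a12* and *Slc25a1* were nearest to the threshold, at 0.86 and 0.65 (adjusted p of 0.0885 and 0.0934). *Slc25a24* was at a CPM of 5.74 ± 0.011 in the LGK974 group and 2.31 ± 0.95 in the endotoxemic group (SD, n = 2; adjusted p = 0.123). *Slc25a14*, *Slc25a37*, *Slc25a29* and *Slc25a46* had log2 fold changes below 0, from −1.03 to −0.05, and did not pass.

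The third comparison set the LGK974 group against the control group. In the LGK974 group, 14 of the 36 tested members were lower and 0 higher, when 17.7% of all tested genes were lower and 16.4% higher, 34.1% in either direction. The median log2 fold change was −0.46 over the members and 0.02 over all genes tested. At an unadjusted p under 0.05, 16 members were lower and 1 was higher, *Slc25a12* (log2 fold change 0.59), when 44.6% of all genes passed, and DESeq2 called 14 lower and 0 higher. Both LGK974 libraries lay below both control libraries for 19 members and above both for 5, as did 34.3% and 33.8% of all genes tested. All 14 called members are among the 18 members that were lower in the endotoxemic group, a comparison that uses the same control libraries. How many of all genes tested were lower in both was not counted, so this overlap is not read as particular to the members. With all libraries, the largest difference was that of *Slc25a23*, 10.3-fold lower (log2 fold change −3.37 ± 0.36, adjusted p = 0.000135), which was −4.11 without LGK974 library 2. It was followed by *Slc25a42*, which was 8.59-fold lower (log2 fold change −3.10 ± 0.35), and by *Slc25a13*, which was 5.94-fold lower (log2 fold change −2.57 ± 0.24). Without control library 1, the number of members called lower was 9, and *Slc25a5*, *Slc25a11*, *Slc25a20*, *Slc25a34* and *Slc25a44* were the 5 lost (adjusted p from 0.0721 to 0.185 in edgeR's test). *Slc25a5*, *Slc25a20*, *Slc25a21* and *Slc25a34* were lost without control library 2 (0.0746 to 0.203). *Slc25a20* was also lost without endotoxemic library 1 or 2 (0.0529 and 0.0528) and without LGK974 library 1 (0.0655), and *Slc25a34* without LGK974 library 2 (0.0745). Higher calls appeared for *Slc25a12* without LGK974 library 1 (log2 fold change 0.83, adjusted p = 0.0215) and for *Slc25a51* without LGK974 library 2 (1.16, adjusted p = 0.000838).

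The 4 members that were lower in the endotoxemic group and not called here were *Slc25a47*, *Slc25a33*, *Slc25a39* and *Slc25a16*. *Slc25a47* had a log2 fold change of 0.17 with an interval of −0.54 to 0.87. Its 2 LGK974 libraries lay on both sides of the control libraries, at 577 and 266 against 385 and 366. Without LGK974 library 1 its log2 fold change was −0.49 (adjusted p = 0.0464), and without LGK974 library 2 it was 0.63 (adjusted p = 0.00864), under the same assumption on the lone LGK974 library. The level of *Slc25a47* relative to the control group was therefore set by which library was used. *Slc25a33*, *Slc25a39* and *Slc25a16* had log2 fold changes of −0.33, −0.46 and −0.64 (adjusted p of 0.420, 0.122 and 0.0807). Without LGK974 library 2, *Slc25a39* was called lower (−0.62, adjusted p = 0.0206).

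**Figure D4:**
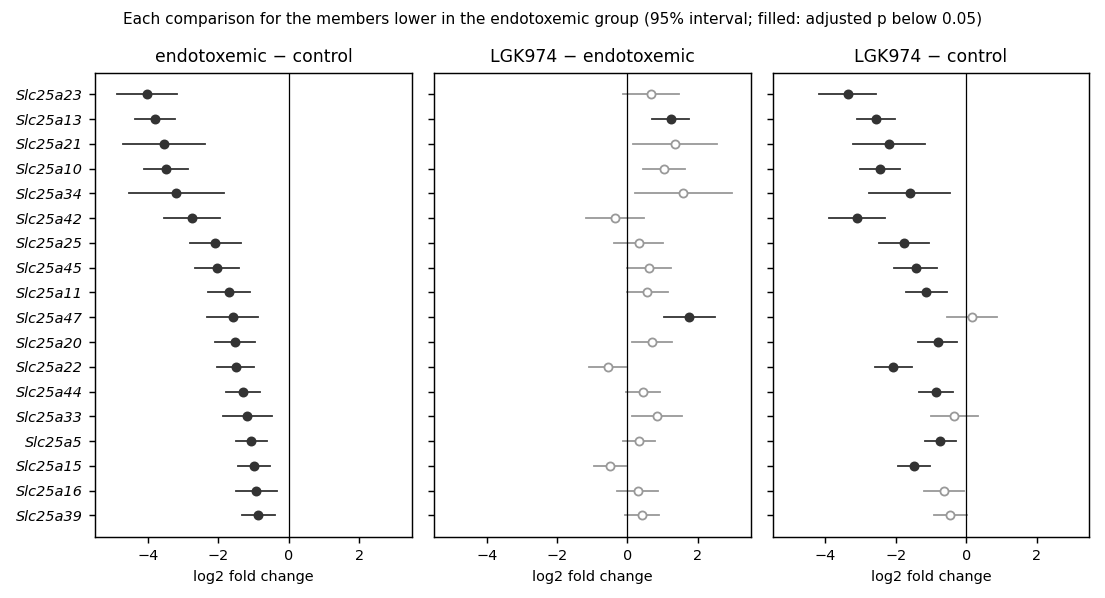
Log2 fold changes with 95% intervals of the 18 members lower in the endotoxemic group, in the 3 comparisons side by side, with filled points for an adjusted p under 0.05. In the middle panel, only Slc25a13 (1.23) and Slc25a47 (1.76) are filled, and in the right panel, 14 members remain to the left of 0 with filled points.

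By the order of the mean CPM, 18 of the 36 tested members were lowest in the endotoxemic group, intermediate in the LGK974 group and highest in the control group. The share of all genes tested in each order was not counted, so the orders are not read as particular to the members. Another 7 were lowest in the endotoxemic group and highest in the LGK974 group, among them *Slc25a1*, *Slc25a3* and *Slc25a47*. In 5 members, *Slc25a15*, *Slc25a22*, *Slc25a37*, *Slc25a42* and *Slc25a46*, the LGK974 group was lowest and the control group highest. *Slc25a4*, *Slc25a28* and *Slc25a51* were among those lowest in the control group and highest in the LGK974 group. Of the 36, *Slc25a13* alone was called in all 3 comparisons, and in each of the others at least 1 pair of neighbours in this order did not differ beyond the test.

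Other proteins of mitochondrial transport fell beside the *Slc25a* members. In a list of 19 such genes, 16 were tested, 10 fell and 0 rose in the endotoxemic group, with a median log2 fold change of −1.01. Over all genes tested, 23.0% fell, 20.4% rose and the median was 0.01. They included *Sfxn5*, a sideroflexin, whose CPM was 30.6 and 26.9 after saline and 1.64 and 1.92 after LPS (log2 fold change −4.01). *Mpc1* and *Mpc2*, the subunits of the pyruvate carrier, had log2 fold changes of −1.26 and −1.70, and *Vdac1*, a pore of the outer membrane, one of −1.34. In the LGK974 group, 0 of the 16 were called against the endotoxemic group, where 5.62% of all genes tested were called. Against the control group, 8 were lower and 0 higher, beside 17.7% and 16.4% of all genes tested. In the endotoxemic against control comparison, a list of proteins that import carriers into the inner membrane was near the shares over all genes. Of 12 tested, 2 rose in the endotoxemic group, *Timm10b* (log2 fold change 1.45) and *Tomm20* (0.74), and 3 fell, *Timm9*, *Timm13* and *Tomm70a*, when 20.4% of all genes tested rose and 23.0% fell. In the LGK974 group, 0 were called against the endotoxemic group (5.62% of all genes tested). Against the control group, *Timm10b*, *Tomm20* and *Timm22* were higher and 0 were lower (16.4% and 17.7% of all genes tested).

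Markers of hepatocytes also fell in the endotoxemic group. Of 5 markers, *Ass1* stands on a row out of genomic order and was left aside. The summed CPM of the 4 others, *Alb*, *Ttr*, *Apoa1* and *Cps1*, was 103699 and 71504 after saline, 46281 and 29770 after LPS, and 34057 and 31852 after LGK974 with LPS. Their log2 fold changes in the endotoxemic group were −1.17, −1.48, −1.00 and −1.98, and all 4 passed the test. In the LGK974 against endotoxemic comparison, where the members' median was 0.37, their log2 fold changes were −0.37, −0.0053, 0.76 and −0.30, and none passed the test. The summed CPM of the erythroid markers, led by the hemoglobin genes, was 2699 and 2918 after saline, 6469 and 7581 after LPS, and 4143 and 2688 after LGK974 with LPS. Of the neutrophil markers, *S100a8* and *S100a9* stand on rows out of genomic order and were left aside. The summed CPM of *Mmp8* and *Retnlg* was at most 2.16 after saline, 54.3 and 69.8 after LPS, and 32.6 and 33.8 after LGK974 with LPS. Markers of other cells moved in both directions in the endotoxemic group. Of the Kupffer cell markers, *Marco* rose (log2 fold change 3.70) and *Vsig4* (−2.76) and *Clec4f* (−0.89) fell, and of the sinusoidal endothelium markers, *Lyve1* rose (3.03) and *Kdr* (−5.36) and *Clec4g* (−3.49) fell. Of the stellate cell markers, *Dcn* rose (0.60) and *Lrat* (−2.93), *Col1a1* (−2.07) and *Reln* (−1.02) fell. The summed CPM of the cholangiocyte markers was 5.48 and 5.56 after saline, 0.546 and 1.07 after LPS, and 4.45 and 1.02 after LGK974 with LPS, and that of the T and NK cell markers was at most 2.23, with *Ncr1* at 0 in all libraries. In the LGK974 against endotoxemic comparison, *Clec4f* (log2 fold change −1.30), *Clec4g* (−2.19) and the hemoglobin genes *Hbb-bs* (−1.21) and *Hbb-bt* (−1.20) were lower and *Col1a1* (1.59) was higher (adjusted p from 0.0163 to 0.0362 in edgeR's test). The Kupffer cell marker *Cd5l* stands on a row out of genomic order and was left aside. In whole tissue, fewer hepatocytes and less RNA per hepatocyte cannot be told apart, and the part of these markers in the members' values was not tested.

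Several members share exon bases with a gene on the other strand, and whether the counting used strand is not given in the sources used here. Among the fallen members these are *Slc25a11* with *Rnf167* over 189 bases, *Slc25a21* with *Pax9* over 189 bases and *Slc25a25* with *Naif1* over 379 bases, beside antisense transcripts at *Slc25a10*, *Slc25a23* and *Slc25a33*. Their reads could not be separated from those of the partner if strand was not used. Of the 4 members on the X chromosome, 2 were tested, *Slc25a5* and *Slc25a14*.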

How the data were processed

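The authors sequenced liver RNA of the 3 groups with a Lexogen library kit and deposited, for 8 libraries, read counts without normalization on 23282 rows that carry gene symbols. The submitters' processing notes name Bowtie2, edgeR and mm10, and the counting program, the annotation and the use of strand are not given in the sources used here. Levels per transcript length were not compared between genes, since the kit's dependence on length is not settled by the labels, and a member with the most counts is only that.

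Endotoxemic libraries 3 and 4, identical to 1 and 2, were counted once. The test was edgeR 4.0.16 in R 4.3.3 (filterByExpr by group, TMM, and 1 quasi-likelihood model of the 3 groups on 6 libraries), and p-values were adjusted by Benjamini-Hochberg over 12701 genes at a threshold of 0.05. CPM are TMM-normalized, errors are SD of 2 libraries or SE of a log2 fold change, and intervals are 95%. The common biological coefficient of variation was 0.239. The floor of 3 counts, a CPM of 0.196 to 0.327 by library, reflects counting error alone. Ribosomal RNA listed as *Rn45s* took 4.80% to 9.38% of counts. DESeq2 1.42.0, other scalings and filters, the replicate number as a block and leaving out each library were tried as alternatives. Scripts were tested on simulated data.

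The row order was compared with RefSeq positions on GRCm38 for 23055 rows. Promoter windows come from RefSeq on GRCm38.p6 and gene coordinates and exon overlaps from a GENCODE annotation of the same build. Named members are the 6 largest falls in the endotoxemic group, the called members of the LGK974 against endotoxemic comparison, the 3 largest falls of the LGK974 against control comparison and the member with the most counts (highest mean CPM) of each transport class. Others appear where their class is described. The values of 1 tested member are not reported here, and it is included in the counts and medians. The members, the transport classes and the other lists were chosen with earlier results of these data known.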

Additional observations from a re-analysis of the deposited data

How the results depend on the processing

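With 2 libraries in a group, the comparison of the LGK974 with the endotoxemic group was the least stable of the 3. Its 2 higher members became 4 with no filter on low counts, 13 when the identical libraries were treated as separate samples, 0 with only the 2 groups compared in the fit, and 0 to 9 when each library was left out. Its 0 lower members became 3 with the identical libraries as separate samples and 0 to 2 when each library was left out. Over all genes tested, the 356 higher and 358 lower became 881 and 824 with no filter, 546 and 568 in DESeq2, 1711 and 1548 with identical libraries separate, and 107 and 162 with only the 2 groups. When each library was left out they were 23 to 1175 higher and 26 to 1067 lower. The cause was not tested. Over all genes, the 2918 lower in the endotoxemic against control comparison became 2352 with at least 10 counts required in every library. They became 3929 with identical libraries separate, the setting that also gave the most lower members. In the endotoxemic against control comparison, 0 higher members became 1, *Slc25a51*, with no filter and with only the 2 groups, and 0 to 1 when each library was left out. The 18 lower members were 16 to 22 under the other settings, and 12 of them were called under all 17 alternatives. In the LGK974 against control comparison, 0 higher members became 1 with no filter, 2 with identical libraries separate and 0 to 2 when each library was left out, and the 14 lower members were 9 to 14 when each library was left out and 12 to 17 under the other settings.

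Over all genes, leaving out a library gave as few as 1517 higher and 1801 lower genes in the endotoxemic against control comparison and 1041 higher and 1331 lower in the LGK974 against control comparison. When each library was left out, the log2 fold change against the endotoxemic group ran from −0.083 (without LGK974 library 2) to 1.16 for *Slc25a23* and from −0.57 (without LGK974 library 1) to 0.54 for *Slc25a51*, which was also at −0.060 without endotoxemic library 2. Against the control group it ran from −0.056 to 0.17 for *Slc25a3* and from −0.49 to 0.63 for *Slc25a47*, with the lowest value of both without LGK974 library 1. Deviations from the group means correlated by −0.00749 to 0.140 between libraries of the same number, so the numbers were not taken to pair libraries. With the replicate number as a block, *Slc25a10* passed in the LGK974 against endotoxemic comparison (log2 fold change 1.02, adjusted p = 0.0486) and *Slc25a34* no longer passed in the LGK974 against control comparison (−1.61, adjusted p = 0.0532). Leaving out or reassigning the rows out of genomic order did not change the number of called members in any of the 3 comparisons.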
